A study of Mus musculus with 6 samples.

Results

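The class II olfactory receptor genes of mouse chromosome 2 form a long tandem array, and the contacts of their promoters were examined in embryonic stem cells depleted of chromatin remodellers. RefSeq lists 293 genes with an Olfr symbol in the array, 222 of them protein-coding and 71 pseudogenes, between positions 85330967 and 90401674 of chromosome 2 (5.07 Mb, build mm10). A bait, meaning a captured promoter fragment, was counted as an olfactory receptor (OR) bait if it lay within 2 kb of such a gene body, and 220 of the 19083 baits of the series (1.15%) did so. Same-chromosome loops with at least 1 end on an OR bait, here called OR loops, numbered 1144 of 84105 over the 6 libraries. The authors' deposited tables of differential contacts held 467 OR entries of 34774 for Ino80KD against Control and 484 of 33243 for Brg1KD against Control.

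The contacts came from promoter-capture Micro-C, in which crosslinked chromatin is cut by micrococcal nuclease, neighbouring ends are ligated and promoter fragments are enriched. All libraries were made from E14 cells, a wild-type male mouse embryonic stem cell line grown with serum and LIF, collected 48 h after transfection with esiRNA, which is long double-stranded RNA digested into short interfering fragments. The Ino80KD group received esiRNA against Ino80, the Brg1KD group esiRNA against Smarca4, the gene of Brg1, and the Control group esiRNA against EGFP, with 2 libraries in each of the 3 groups. Per the labels, replicate 1 of every group belonged to batch 1, replicate 2 of both depletions to batch 3 and Control replicate 2 to batch 2, and the labels do not tie replicates to separate cultures, which means that their spread may be only technical. No RNA data were used, so neither the knockdowns nor the labelled cell type was checked against expression.

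Olfactory receptors are odorant-binding G protein-coupled receptors, and each olfactory sensory neuron expresses a single receptor allele. In those neurons silent receptor genes are packed into heterochromatin, while the transcription factors Lhx2 and Ebf and the adaptor Ldb1 gather receptor enhancers into a hub that serves the chosen gene. Embryonic stem cells do not use these receptors for smell, and the arrays are AT-rich, gene-dense and poor in housekeeping promoters. Brg1 is the ATPase of the esBAF complex, which moves and evicts nucleosomes at stem cell enhancers. Ino80 is the ATPase of the INO80 complex, which slides nucleosomes and exchanges histone variants.

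RefSeq (GRCm38.p6) gave a promoter window of 300 bases, 250 before and 50 after the annotated start, for 186 of the 293 genes, and for 167 genes the start itself lay on an OR bait. The windows below, written 5′ to 3′ on the strand of the gene, belong to baits on which the results turn. Olfr1009 (chr2:85721157-85721456, plus strand) lies beside the stretch of the array that many other baits contacted, Olfr1134 (chr2:87658408-87658707, minus strand) had the smallest p of any OR entry in the authors' deposited table for Ino80KD, and Olfr1148 (chr2:87832791-87833090, plus strand) shows in capitals the motifs TATAAA and TAATTA.
Olfr1009: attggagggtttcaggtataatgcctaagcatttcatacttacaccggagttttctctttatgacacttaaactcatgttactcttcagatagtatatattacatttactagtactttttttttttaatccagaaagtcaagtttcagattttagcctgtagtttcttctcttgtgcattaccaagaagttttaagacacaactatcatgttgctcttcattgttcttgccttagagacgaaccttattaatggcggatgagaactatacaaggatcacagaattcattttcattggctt
Olfr1134: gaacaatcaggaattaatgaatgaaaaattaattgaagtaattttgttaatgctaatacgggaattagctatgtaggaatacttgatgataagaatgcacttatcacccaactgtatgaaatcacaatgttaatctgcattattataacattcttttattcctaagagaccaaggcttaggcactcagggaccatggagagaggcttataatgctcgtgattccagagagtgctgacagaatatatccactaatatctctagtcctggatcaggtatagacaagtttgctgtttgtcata
Olfr1148: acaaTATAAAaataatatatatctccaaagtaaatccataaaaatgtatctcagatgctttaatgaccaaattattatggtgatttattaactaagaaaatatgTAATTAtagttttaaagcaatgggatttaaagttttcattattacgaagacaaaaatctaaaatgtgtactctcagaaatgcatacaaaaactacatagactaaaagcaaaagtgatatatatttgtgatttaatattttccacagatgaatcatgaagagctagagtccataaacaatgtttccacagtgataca

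The base composition of these windows set the array apart from other RefSeq windows. In the printed windows of Olfr1009 and Olfr1148 the bases after the annotated start begin with ATG, the start codon, unlike in Olfr1134. Whether annotated starts are starts of transcription was not tested. The values below may thus describe coding starts and their upstream flanks rather than promoters. Median GC content was 32% over the 187 OR windows (1 gene had more than 1 window) and 52.7% over all 32851 RefSeq windows, and the median number of CG dinucleotides was 1 in OR windows against 7 in all windows. No CG dinucleotide was present in 35.8% of OR windows, against 5.43% of all windows. The motif TAATTA, the core that Lhx2 and other homeodomain factors recognise, was found on either strand in 24.6% of OR windows and 5.29% of all windows, and TATAAA, the TATA box, in 55.1% and 13.6%. Among windows whose GC content lay between the OR quartiles (29.3% and 34.5%), TAATTA was found in 23.2% of OR windows and in 23.2% of the other windows, and TATAAA in 46.3% and 54.0%, so at equal base composition neither was more frequent in the array. CCCNNGGG, the palindrome read by Ebf factors, was found in 2.14% of OR windows and 13.7% of all windows. Within the same GC range it was found in 2.11% of OR windows and 0.725% of the other windows. TAATTA and TATAAA can share bases where they meet, and a match of letters is no evidence of binding.

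Close copies within the array may limit how far a read can be assigned to 1 bait. The best match of an OR window within the array had a median identity of 65.3% of the window, 36 of 186 windows matched another at 80% or more and 22 at 90% or more. Olfr142 (chr2:90252937-90253236, minus strand), whose bait carried the loop found most often, and its neighbour Olfr1272 (chr2:90282524-90282823, minus strand) shared 275 of 300 bases, with the bases that have no identical partner in the alignment in capitals.
Olfr142: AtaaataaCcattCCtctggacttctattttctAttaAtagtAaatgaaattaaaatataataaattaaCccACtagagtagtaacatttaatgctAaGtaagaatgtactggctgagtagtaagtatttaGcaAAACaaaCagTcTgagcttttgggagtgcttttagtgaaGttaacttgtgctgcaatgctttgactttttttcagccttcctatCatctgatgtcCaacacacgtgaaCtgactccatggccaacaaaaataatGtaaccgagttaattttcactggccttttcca
Olfr1272: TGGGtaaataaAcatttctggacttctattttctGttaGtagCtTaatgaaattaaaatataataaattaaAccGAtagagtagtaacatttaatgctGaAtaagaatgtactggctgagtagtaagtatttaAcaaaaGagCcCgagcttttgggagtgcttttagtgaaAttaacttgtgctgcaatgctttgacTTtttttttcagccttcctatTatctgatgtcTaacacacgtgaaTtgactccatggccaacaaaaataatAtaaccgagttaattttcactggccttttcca
Both genes had baits of their own, with 12 loops for Olfr142 and 11 for Olfr1272 over the 6 libraries. No source used here says how reads matching more than 1 place were treated, so counts for such pairs, and for Olfr1057 and Olfr1062 (97.0% identity) or Olfr1061 and Olfr1066 (93.3%), are uncertain.

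Loops of the OR baits stayed mostly within the array. Ino80KD libraries listed 177 and 165 OR loops, Brg1KD libraries 124 and 213, and Control libraries 244 and 221. The share of OR loops with both ends inside the array was 85.9% and 93.3% in Ino80KD, 86.3% and 90.6% in Brg1KD, and 91.4% and 89.6% in Control. Of the 220 baits, 218 had a loop in at least 1 library and 2 had none, with a median of 5 loops per bait over the 6 libraries and a maximum of 23. Loops that joined 2 OR baits directly were rare, with 4 and 1 in Ino80KD, 0 and 3 in Brg1KD, and 3 and 4 in Control, and the other end of an OR loop was nearly always a fragment that was not captured. Between 71.9% and 78.4% of the other ends inside the array fell in a 20 kb bin that holds an OR gene, against 85.1% of all such bins (217 of 255), so bins without an OR gene took a larger share of the other ends than of the bins in every library.

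**Figure D1:**
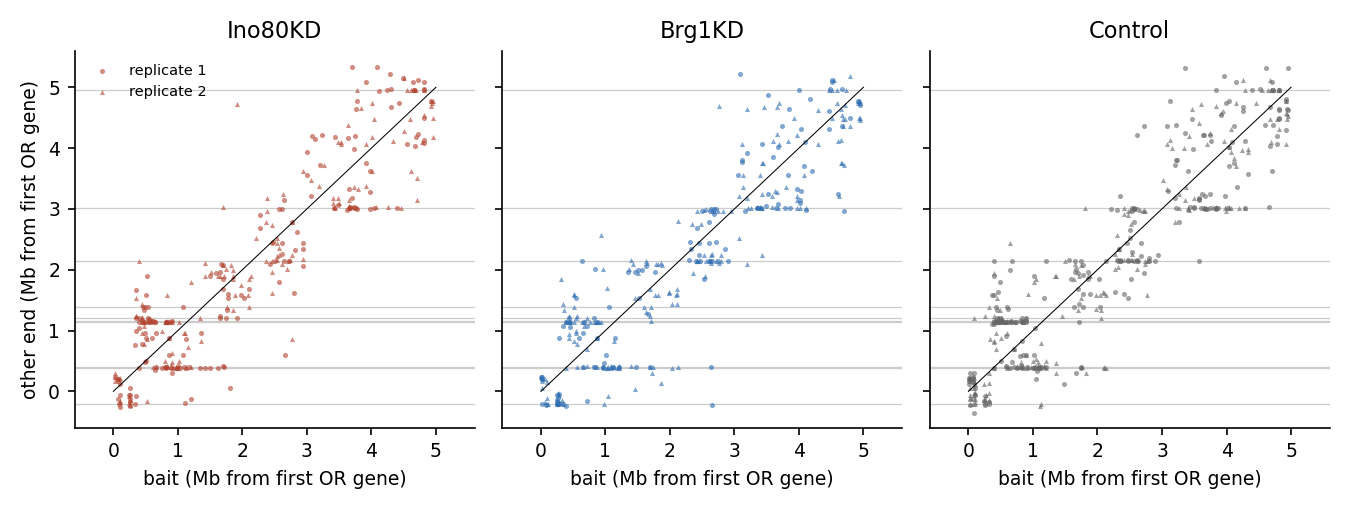
Position of the other end (vertical axis) against the position of the OR bait (horizontal axis), both in Mb from the first OR gene, for every OR loop within the plotted range in the 2 libraries of Ino80KD, Brg1KD and Control. The diagonal marks equal positions and the grey lines the 10 most joined 20 kb bins, on which loops from many baits line up as horizontal stripes in all 3 groups.

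Other ends were concentrated in a few stretches. The 1138 loops that started from an OR bait joined 206 bins of 20 kb, with a median of 3 loops per bin, and the 10 most joined bins, ranked after the data were seen, held 354 of them (31.1%). The bin that led, at 86460001 to 86480000, holds the receptor pseudogenes Olfr1069-ps1 and Olfr1070-ps1 and was joined by 59 loops from 30 baits. The second, at 85720001 to 85740000, holds Olfr1009 and received 53 loops from 32 baits. Further bins lay at 88340001 to 88360000, which holds Olfr1176 and Olfr1177-ps and received 47 loops from 36 baits, at 87460001 to 87480000, which holds no annotated gene and received 42 loops from 32 baits, and at 90280001 to 90300000, which holds Olfr1272 and Olfr1273-ps and received 28 loops from 21 baits.

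The 2 stretches joined most were contacted from opposite sides. The stretch from 85700001 to 85740000, here the lower hub, made up of 2 adjoining bins, received 91 loops, of which 87 came from baits at higher coordinates, 4 from the Olfr1009 bait within it and 0 from baits at lower coordinates, although 14 OR baits lay within 1 Mb below it and 51 within 1 Mb above. The stretch from 86460001 to 86500000, the upper hub, lies 760 kb further along and received 84 loops, of which 82 came from lower coordinates and 2 from higher ones, with 54 OR baits within 1 Mb below and 34 above. The 2 hubs thus took their loops mostly from the sides that face each other. Baits that joined the lower hub also lay beyond the upper hub, among them Olfr1079 and Olfr1104. The 87 loops were not split at the upper hub. The bin at 88340001 was likewise joined mostly from 1 side, with 43 loops from higher and 4 from lower coordinates and 46 and 43 baits within 1 Mb on those sides. The bin at 87460001 was less one-sided, with 32 loops from higher and 10 from lower coordinates and 44 and 35 baits on those sides. At 86700001, the last of the 10 bins, 7 loops came from higher and 9 from lower coordinates, with 40 and 51 baits. At 90280001 all 28 loops came from lower coordinates, where all 45 OR baits within 1 Mb lie, so its side was fixed by its place.

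Hub loops were listed in every library. The lower hub had 16 and 11 loops in Ino80KD, 10 and 19 in Brg1KD, and 14 and 21 in Control. The upper hub had 12 and 16 loops in Ino80KD, 4 and 15 in Brg1KD, and 27 and 10 in Control. The groups overlapped at both hubs, and the Control libraries held both the highest count and the second lowest at the upper hub. Loops that joined the stretches within 40 kb of the Olfr1009 bait and of its most often listed far end numbered 3 and 2 in Ino80KD, 2 and 8 in Brg1KD, and 7 and 4 in Control. Their highest scores were 9.57 and 15.89 in Ino80KD, 8.77 and 15.02 in Brg1KD, and 16.31 and 9.45 in Control, on a scale that starts at the authors' minimum of 5.

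Few single loops were found again in other libraries. Of 971 distinct OR loops, counted by identical ends, 837 (86.2%) were listed in 1 library, 107 in 2, 18 in 3, 7 in 4, 1 in 5 and 1 in all 6. Among the 49018 distinct loops of the rest of the series, 67.9% were listed in 1 library and 3.15% in all 6. The loop listed in all 6 joined the bait of Olfr142 with a fragment at 90100001 to 90118856 that holds Olfr1268-ps1 and Olfr1269, 144 kb away. Its scores were 5.63 and 5.31 in Ino80KD, 5.64 and 5.08 in Brg1KD, and 6 and 7.74 in Control, beside median scores of OR loops between 5.65 and 5.82. The loop listed in 5 libraries was that of Olfr1009 with the upper hub at 86460001 to 86480000, 749 kb away, which scored 9.57 in Ino80KD replicate 1 and was not listed in Ino80KD replicate 2, scored 8.77 and 15.02 in Brg1KD, and 16.31 and 6.01 in Control. Each list was called on its own, so the order of scores across libraries was not read.

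Whether OR loops differ from all other loops was tested within each library. A loop counted as shared if the other library of its group listed a loop with both ends overlapping or within 5 kb. Shared OR loops made up 14.7% and 16.4% in Ino80KD, 21.0% and 14.6% in Brg1KD, and 16.0% and 17.6% in Control, while shared loops of the rest made up 50.3% and 52.1% in Ino80KD, 46.8% and 45.7% in Brg1KD, and 49.6% and 50.6% in Control. The OR share was lower in 6 of 6 libraries, at 16.7% ± 2.38 for OR loops and 49.2% ± 2.44 for the rest (SD, n = 6), a difference of -32.5 percentage points (exact two-sided permutation of signs, p = 0.03125, the smallest that 6 libraries allow, and 0.03125 after adjustment over 4 such comparisons). The libraries of a group enter each other's share, so the 6 values are not fully independent. With both sides limited to spans of 200 kb to 1 Mb and scores under 7, OR shares were 11.6% to 19.3% and shares of the rest 30.4% to 37.0%. Class I OR baits, a family of older receptors on chromosome 7, had a share of 27.0% ± 5.44 and vomeronasal receptor baits 24.9% ± 3.35 (SD, n = 6), values given without a test.

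**Figure D2:**
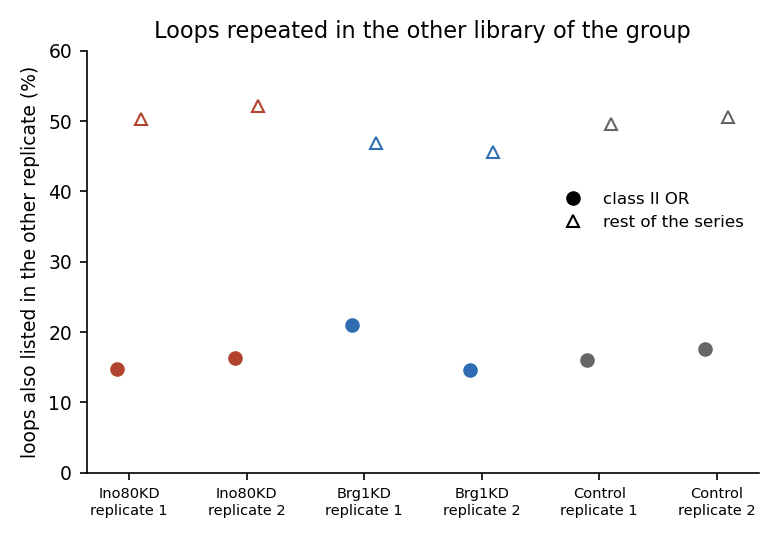
Share of loops also listed in the other library of the same group (vertical axis, percent), for OR loops (filled circles) and the rest of the series (open triangles) in each of the 6 libraries. OR shares lie between 14.6% and 21.0% and shares of the rest between 45.7% and 52.1%.

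OR loops also reached further and scored lower within their lists. Their median span was 496 and 426 kb in Ino80KD, 446 and 451 kb in Brg1KD, and 469 and 441 kb in Control. Over the 6 libraries it averaged 455 ± 24.6 kb for OR loops and 248 ± 20.1 kb for the rest (SD), longer in 6 of 6 (exact permutation, p = 0.03125). Vomeronasal receptor baits, which were not tested, had a median span of 472 ± 87.9 kb, and class I OR baits 373 ± 25.1 kb. Loops under 100 kb made up 3.64% to 8.14% of OR loops, against 19.6% to 21.8% of the rest. The median score percentile within a list was 36.2 ± 3.35 for OR loops and 42.6 ± 1.19 for the rest, and the share of loops joining 2 baits was 2.55% ± 1.16 for OR loops and 4.05% ± 1.01 for the rest, each lower in 6 of 6 libraries (exact permutation, p = 0.03125 for both, and 0.03125 after adjustment over the 4 comparisons). Without a test, the score percentile was 40.1 ± 3.6 for class I OR baits and 38.6 ± 3.91 for vomeronasal receptor baits, and their bait-to-bait shares were 4.23% ± 1.97 and 1.82% ± 1.51.

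The baits with the most loops sat mainly at the start of the array. Olfr988, close to the start of the array, had 2 and 3 loops in Ino80KD, 3 and 4 in Brg1KD, and 3 and 8 in Control. Olfr1009 at the lower hub had 4 and 1 loops in Ino80KD, 2 and 3 in Brg1KD, and 7 and 6 in Control, so its Control libraries lay above all 4 depletion libraries. Olfr998 had 5 and 2 loops in Ino80KD, 2 and 4 in Brg1KD, and 3 and 2 in Control, and its groups overlapped. Olfr993 had 1 and 1 loops in Ino80KD, 1 and 0 in Brg1KD, and 2 and 8 in Control, with both Control libraries above the others. The bait of Olfr991-ps1 and Olfr992 had 13 loops in all and those of Olfr996, Olfr1079 and Olfr142 had 12 each. The baits were ranked by loops over all 6 libraries, Control among them. A bait with many Control loops, such as Olfr993, could thus enter the list through Control. Counts this small carry wide counting error and were not divided by the length of the lists, and no test was made of single baits.

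Ino80KD libraries listed fewer OR loops relative to all loops than Control libraries did, and 2 libraries a group cannot bring such a difference past the test. OR loops made up 12.0 and 11.6 per 1000 same-chromosome loops in Ino80KD and 15.9 and 15.3 per 1000 in Control. Both Ino80KD libraries lay below both Control libraries, at 11.8 ± 0.252 in Ino80KD and 15.6 ± 0.401 in Control (SD, n = 2 each), a ratio of 0.759 with an exact two-sided permutation p of 0.333, the smallest that 2 against 2 allows. Within batch 1, the batch that holds a library of each group, the ratio was 0.757. At a score of 7 or more OR loops numbered 27 and 18 in Ino80KD (6.86 and 4.97 per 1000 loops at that score) and 41 and 41 in Control (10.0 and 11.6 per 1000), a ratio of 0.548, and at a score of 10 or more 1 and 3 in Ino80KD and 6 and 7 in Control, a ratio of 0.320. The Wilson 95% intervals of single libraries, which cover counting error only, were 10.4 to 13.9 and 10.0 to 13.6 per 1000 in Ino80KD, and 14.0 to 18.0 and 13.4 to 17.4 in Control.

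Loops of the other receptor families were also a smaller share in Ino80KD on average. Class I OR loops made up 10.4 and 9.38 per 1000 in Ino80KD and 9.88 and 15.7 in Control, and vomeronasal receptor loops 7.59 and 7.34 in Ino80KD and 8.64 and 11.7 in Control. The ratio was 0.772 for class I OR and 0.734 for vomeronasal receptor loops over all libraries, and 1.05 and 0.878 within batch 1. Class I OR loops overlapped between the groups, and vomeronasal receptor loops did not.

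**Figure D3:**
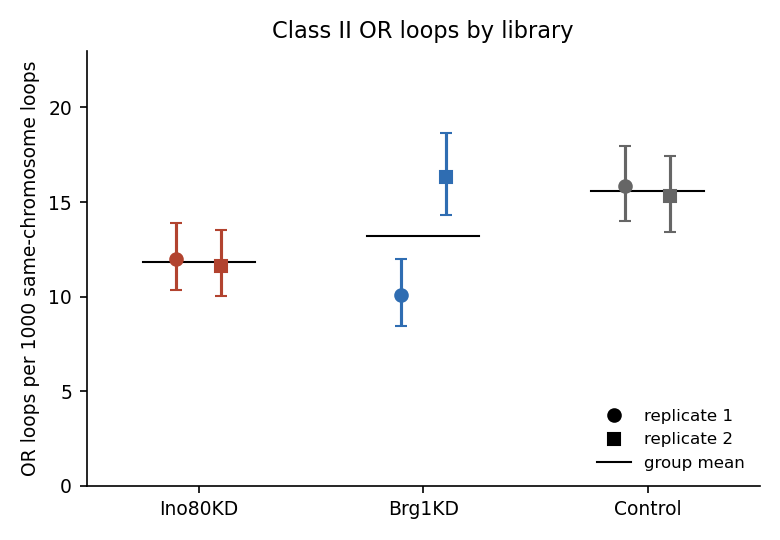
OR loops per 1000 same-chromosome loops (vertical axis) in each library of Ino80KD, Brg1KD and Control, with Wilson 95% intervals as bars and the mean of each group as a line. Both Ino80KD libraries lie below both Control libraries, and the 2 Brg1KD libraries lie on either side of all the others.

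For Brg1 the libraries disagreed. OR loops made up 10.1 and 16.3 per 1000 in Brg1KD and 15.9 and 15.3 in Control, at 13.2 ± 4.44 in Brg1KD and 15.6 ± 0.401 in Control (SD, n = 2 each, ratio 0.848, exact permutation p = 1). At a score of 10 or more OR loops numbered 0 and 5 in Brg1KD and 6 and 7 in Control, a ratio of 0.504 per 1000. Replicate 1 of Brg1KD was the lowest of all libraries and replicate 2 the highest, and the ratio to Control was 1.05 without replicate 1 and 0.647 without replicate 2. Replicate 1 also listed more loops from OR baits to other chromosomes, 47 against 12 in Brg1KD replicate 2, and its part in the count was not tested. Ino80KD against Brg1KD gave a ratio of 0.895 (exact permutation p = 1), which was 1.19 within batch 1 and 0.712 within batch 3.

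Some loops were listed, with identical ends, in both libraries of a group and in no library of the others. There were 5 such OR loops for Ino80KD, 8 for Brg1KD and 11 for Control, or 0.515%, 0.824% and 1.13% of the 971 distinct OR loops, beside 1.20%, 0.785% and 1.25% of distinct loops in the rest. Those of Ino80KD with the longest spans were Olfr1213 with the Olfr1176 bin, 630 kb away, the Olfr1040 and Olfr1041-ps1 bait with the upper hub, Olfr1261 with the Olfr1273-ps fragment, and Olfr1031 with the lower hub. Those of Control included Olfr1214 with the Olfr1176 bin at scores of 6.03 and 11.09, and Olfr1065, Olfr1015 and Olfr1020 with fragments of the hubs. For the loops of Olfr1065, Olfr1015 and Olfr1020 a depletion library listed a loop of the same bait with an adjoining fragment of the same hub. A loop of the same bait ending within 20 kb was listed in another group for 0 of the 5 Ino80KD loops, 5 of the 8 Brg1KD loops and 5 of the 11 Control loops. Olfr1213 and Olfr1214, listed for opposite groups, lie next to each other and joined the same fragment at 88340307 to 88360000. A loop of Olfr988 with a fragment at 85520145 to 85540000 was listed in both Brg1KD libraries (7.68 and 8.24) and both Control libraries (5.63 and 6.68) and in neither of Ino80KD. A loop of Olfr1045 with Olfr1046, 9.54 kb away, was listed in all 4 depletion libraries and in neither of Control. Loops of Olfr1016 with the upper hub and of the Olfr32 and Olfr1270 bait with the Olfr1273-ps fragment were listed in both libraries of Ino80KD and of Control and in neither of Brg1KD. Loops missing from Ino80KD alone made up 0.103% of distinct OR loops and 0.239% of the rest, those missing from Brg1KD alone 0.206% and 0.602%, and those missing from Control alone 0.103% and 0.194%.

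The longest loop of each library was listed in that library only. The longest of Ino80KD joined Olfr988 with Lrp1b, 44084 kb away, in replicate 1 and Olfr1079 with a fragment 14651 kb away in replicate 2. The longest of Brg1KD spanned 2880 kb from Olfr1158 in replicate 1 and 29871 kb from Olfr259 to the bait of Gpd2 in replicate 2, and those of Control spanned 80451 kb from Olfr1176 in replicate 1 and 12670 kb, from Olfr1031 to a bait that the group lists lack, in replicate 2. The loop of Olfr1158 ended at 85100001 to 85120000, outside the array, whose first OR gene starts at 85330967. The 6 scores lay between 5.5 and 7.89. The bait missing from the group lists was joined by OR baits 1 and 1 times in Ino80KD, 0 and 0 times in Brg1KD, and 1 and 1 times in Control.

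In the deposited test of contact strength, OR contacts had mostly negative fold changes in Ino80KD, and none passed adjustment. In the authors' deposited table, OR entries had a median log2 fold change of -0.24, against 0.00 over all entries of that table. Below 0 lay 352 of the 467 OR entries of the authors' deposited table (75.4%), against 49.6% of all entries, and 147 of 181 baits had a mean weighted by the inverse squared error below 0. An unadjusted p under 0.05 was given for 11 OR entries of the authors' deposited table, all of them lower, which is 2.36% of OR entries beside 1.29% of all entries, where 0.382% were lower and 0.912% higher. None of the 467 passed an adjusted p under 0.05 in the authors' deposited table, and neither did any other entry (0%), by a tool that no source used here names. The direction of the deposited fold changes was read from loops listed in both libraries of only 1 group, since 86.3% of entries matching loops of Ino80KD alone were above 0 and 15.4% of those matching loops of Control alone.

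Each entry rests on a loop listed in at least 1 of the 2 groups compared, and the lists of OR loops were longer in Control, so part of the share below 0 restates the loop counts. A loop of the bait within the tested region was listed in Ino80KD alone for 144 OR entries, in both groups for 118 and in Control alone for 205. By the authors' deposited table the medians of these OR entries were 0.03, -0.21 and -0.43, and those of the rest of the table, split the same way, were 0.18, 0.01 and -0.19. Among entries listed in both groups, 95 of 118 OR entries (80.5%) and 47.2% of the rest were below 0 in the authors' deposited table. Of the 11 OR entries with an unadjusted p below 0.05, 10 had loops in Control alone and 1 in both groups.

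**Figure D4:**
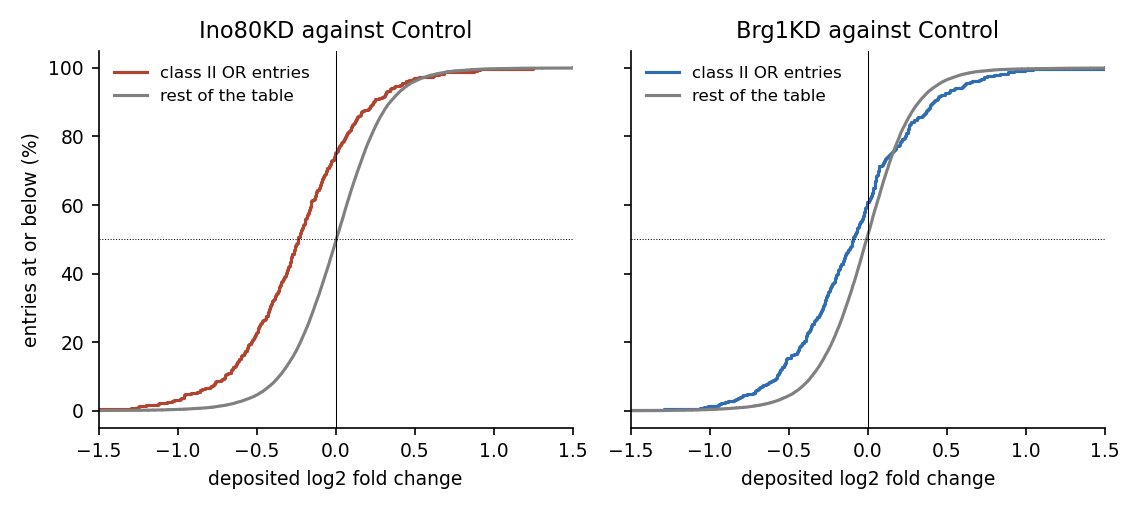
Cumulative share of entries (vertical axis, percent) at or below each log2 fold change of the authors' deposited tables (horizontal axis), for OR entries in colour and the rest of each table in grey, with Ino80KD against Control on the left and Brg1KD against Control on the right. At 0 the Ino80KD curve stands at 75.4% for OR entries and the Brg1KD curve at 60.7%.

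The entry with the smallest p was that of Olfr1134 with the stretch from 87660001 to 87700000, which holds Olfr1135 and Olfr1136, 22.1 kb away from centre to centre. The stretch begins right beside the bait, which ends at 87659577. The authors' deposited table gave it a log2 fold change of -0.55 ± 0.20 (SE, unadjusted p = 0.00633, adjusted p = 1.00) for Ino80KD and -0.30 ± 0.19 for Brg1KD, and a loop there was listed in neither Ino80KD library, in 1 Brg1KD library (5.14) and in both Control libraries (5.52 and 6.19). Olfr995 and Olfr988 came next, both with the stretch around Olfr987 at the start of the array, at -1.23 ± 0.47 and -0.65 ± 0.26 in the authors' deposited table (unadjusted p = 0.00844 and 0.0115). Loops of Olfr988 with that stretch numbered 0 and 0 in Ino80KD, 0 and 0 in Brg1KD, and 0 and 3 in Control, so Control replicate 2 alone carried them, while Olfr995 had a loop with its first stretch in both Control libraries and in no other. For the region that Olfr988 joined, Olfr993 had -0.75 ± 0.37 and Olfr995 -0.98 ± 0.44 in the authors' deposited table, and the regions tested for these 3 baits overlap, so the entries are not separate evidence.

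Most of the remaining lower entries joined regions close to the bait. Olfr1262, in the authors' deposited table, had -0.60 ± 0.27 with a region of Olfr1262, Olfr1263 and Olfr1264, centred 18.6 kb away. Olfr1033 had -0.63 ± 0.29 in the authors' deposited table with a region of Olfr1031, Olfr1032 and Olfr1033, centred 25.8 kb away. Both regions overlap the gene of the bait itself and lie right beside the bait. Olfr1012 had -1.24 ± 0.57 in the authors' deposited table with the stretch from Olfr1031 to Olfr1035-ps1. The bait of Olfr1042 and Olfr1043 had -0.49 ± 0.24 and Olfr1148 had -0.91 ± 0.46 in the authors' deposited table, with regions centred 22.4 and 27.2 kb away. The region of the former overlaps Olfr1042 itself. The largest deposited p-value of the 11 was 0.0473, that of Olfr1148. Olfr993 also had -0.58 ± 0.27 in the authors' deposited table with the stretch from Olfr994 to Fads2b. No OR entry was higher at that threshold, and the smallest p among higher entries of the authors' deposited table was 0.145, for Olfr1228 at 1.25 ± 0.86.

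OR entries had medians below 0 at every distance. OR entries under 100 kb had a median of -0.40 and the rest had 0.08 at the same distance in the authors' deposited table, with 36 of 39 OR entries below 0. OR loops under 100 kb numbered 9 and 6 in Ino80KD and 18 and 18 in Control, and entries at each distance were not split by listing. At 500 kb and more the median of OR entries in the authors' deposited table was -0.21 and that of the rest -0.05. The median signal of OR entries was 16.1 in the authors' deposited table, against 62.7 over all entries, and their median SE was 0.62 against 0.33. The 2493 other entries of the authors' deposited table with signal below the OR median lay at -0.05 in the middle, and the 34 OR entries with signal at or above that of the middle entry of the table had a median of -0.30.

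Other receptor genes and other baits with AT-rich windows had medians below 0 as well. In the authors' deposited table for Ino80KD the median log2 fold change was -0.19 for class I OR baits, -0.15 for the OR baits in neither array and -0.16 for vomeronasal receptor baits, with 71.1%, 70.2% and 69.6% of entries below 0. Baits of no receptor gene whose promoter windows had a GC content between the OR quartiles had 70 entries in the authors' deposited table, with a median of -0.17 and 45 below 0. The difference between the array and these baits was not tested, and neither was the part of base composition, signal or receptor identity in it.

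Ino80KD values were below 0 on balance along the whole array. In blocks of 0.5 Mb, medians of OR entries in the authors' deposited table for Ino80KD were below 0 in 11 of 11 blocks, from -0.34 to -0.14. For Brg1KD the medians of the authors' deposited table were below 0 in 7 of 11 blocks, from -0.19 to 0.10, and lowest in the blocks that hold the 2 hubs. The comparisons share the Control libraries, so their values are set side by side only.

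**Figure D5:**
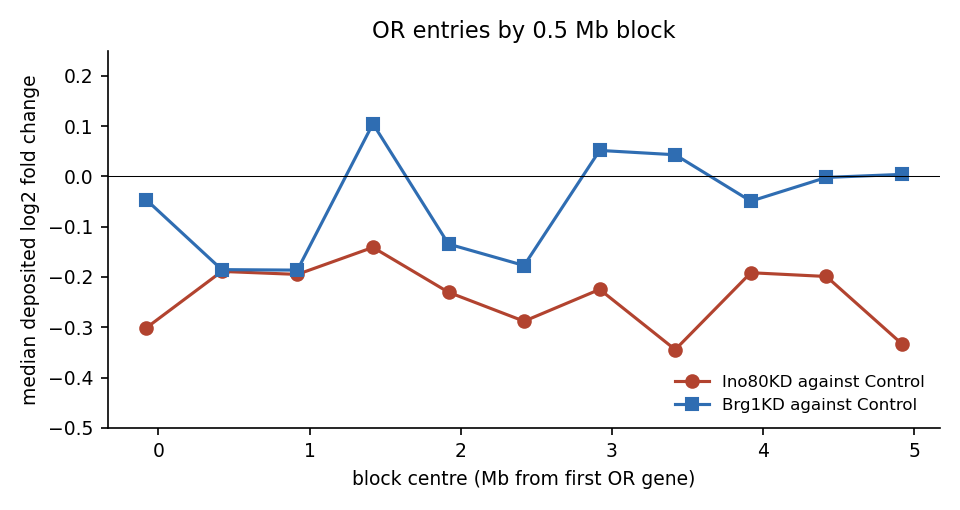
Median log2 fold change of OR entries in the authors' deposited tables (vertical axis) for each of 11 blocks of 0.5 Mb, placed by the centre of the block in Mb from the first OR gene (horizontal axis), for Ino80KD against Control (circles) and Brg1KD against Control (squares). Ino80KD medians lie between -0.34 and -0.14, and Brg1KD medians lie on both sides of 0.

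Fold changes of OR contacts lay closer to 0 for Brg1KD. The median log2 fold change of OR entries in the authors' deposited table for Brg1KD was -0.10, against -0.01 over all entries, and 294 of 484 (60.7%) were below 0, against 51.3% of all entries. The authors' deposited table had 1 OR entry at an unadjusted p under 0.05, or 0.207%, which was higher, beside 1.2% of all entries, of which 0.827% were lower and 0.373% higher, and 0 entries (0%) passed an adjusted p under 0.05. Class I OR baits, vomeronasal baits and OR baits in neither array had medians of 0.03, 0.04 and 0.03 in the authors' deposited table. Among lower entries, that of Olfr1126 with Pramel7 and Pramel6 came closest to the threshold in the authors' deposited table for Brg1KD, at -0.58 ± 0.31 (SE, unadjusted p = 0.0661). Loops of the bait were listed in Brg1KD alone for 138 OR entries, in both groups for 125 and in Control alone for 221, with medians of 0.17, -0.02 and -0.28 in the authors' deposited table, and 0.16, -0.00 and -0.16 for the rest split the same way. In the authors' deposited table the median was -0.10 for OR entries with signal at or above that of the middle entry, for the other entries below the OR median signal -0.04, and for AT-rich baits of no receptor gene -0.09 over 64 entries.

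In Brg1KD the medians of long contacts with the upper hub and with some other bins were below that of all OR contacts. OR entries of the authors' deposited table for Brg1KD that cover the leading bin at 86460001 and span over 100 kb had a median of -0.37, with 26 of 31 below 0, and those that cover the lower hub bin at 85720001 had -0.07, with 33 of 48 below 0. In the authors' deposited table for Ino80KD the same bins had medians of -0.17 with 24 of 40 below 0 and -0.28 with 32 of 38 below 0. Outside the hubs, Brg1KD medians of the authors' deposited table were -0.46 at 86520001 (19 of 20 below 0) and -0.44 at 86700001 (7 of 11). They were -0.24 at 87460001, -0.06 at 88340001, -0.05 at 90280001 and 0.08 at 85120001. Entries rest on listed loops, and the upper hub had 4 and 15 loops in Brg1KD and 27 and 10 in Control. The bins were chosen by their loops in all 6 libraries, among them the groups compared in the tables, so these medians are a description. Entries joining the stretches around the Olfr1009 bait and its far end had a median of -0.27 over 10 entries in the authors' deposited table for Ino80KD and -0.10 over 11 entries for Brg1KD, and none of them had an unadjusted p below 0.05.

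Entries present in both tables allow the depletions to be set against each other. Over 269 OR entries with identical bait and region, the median of the Ino80KD value minus the Brg1KD value was -0.20, from medians of -0.36 and -0.19 in the authors' deposited tables, and the Ino80KD value was the lower in 189 (70.3%). Over 23253 entries of the rest in both tables the median difference was 0.01 and the Ino80KD value was the lower in 48.6%. No test was made, because the authors' deposited tables hold no value per library. An entry in both tables tends to rest on a Control loop, since 168 of the 269 were listed in Control and not in Brg1KD and 172 in Control and not in Ino80KD, and their medians lie below those of all OR entries.

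OR baits also joined the genes that border the array. The stretch of 331 kb before the first OR gene holds P2rx3, Ssrp1, Tnks1bp1, Aplnr, which encodes the apelin receptor, and Lrrc55, and OR loops with it numbered 13 and 7 in Ino80KD, 14 and 16 in Brg1KD, and 9 and 19 in Control. The bait of Aplnr itself was joined by OR baits 1 and 1 times in Ino80KD, 1 and 2 times in Brg1KD, and 0 and 0 times in Control, from Olfr996, Olfr998, Olfr1000 and Olfr1065. Counts this low were not tested. Past the last OR gene, where Ptprj lies, OR loops numbered 5 and 1 in Ino80KD, 2 and 1 in Brg1KD, and 2 and 2 in Control, and 2 of 7 entries were below 0 for Ino80KD (median 0.10) and 3 of 4 for Brg1KD (median -0.19) in the authors' deposited tables. The only OR entry of the authors' deposited table for Brg1KD with an unadjusted p under 0.05 joined Olfr996 with the region of Tnks1bp1, Aplnr and Lrrc55, at 1.04 ± 0.49 (SE, p = 0.0348, adjusted p = 1.00). Loops of Olfr996 with that region numbered 0 and 1 in Ino80KD, 3 and 2 in Brg1KD, and 1 and 1 in Control.

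The gap of 140 kb between Olfr995 and Olfr996, which holds Fads2b, a fatty acid desaturase gene, was joined by 4 and 5 OR loops in Ino80KD, 3 and 7 in Brg1KD, and 9 and 13 in Control, so both raw Control counts lay above all 4 raw depletion counts. In the authors' deposited table for Ino80KD 22 of 22 OR entries that touch the gap were below 0, with a median of -0.30 over 7 baits, and in that for Brg1KD 13 of 20 were, with a median of -0.08. For Ino80KD 75.4% of all OR entries were below 0, and 92.7% of those with loops in Control alone. The entries that touch the gap were not split by listing. Inside the array, the stretch of Pramel7 and Pramel6, a gene family expressed in early embryos and stem cells, was joined by 0 and 3 OR loops in Ino80KD, 1 and 1 in Brg1KD, and 5 and 4 in Control. Entries of the authors' deposited tables that touch it had medians of -0.30 over 26 entries for Ino80KD and -0.24 over 34 entries for Brg1KD. The counts were not divided by the length of the lists, which held 14752 and 14172 same-chromosome loops in Ino80KD. Brg1KD lists held 12313 and 13032 such loops and Control lists 15385 and 14451. How many other stretches of the series order the groups in the same way was not counted. These stretches were picked after the loops were seen, and no test was made of them.

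Genes that act with the receptors in olfactory neurons were described in the same way. Of 16 regulators of receptor choice 13 had a bait, and their 56 entries in the authors' deposited table for Ino80KD had a median log2 fold change of 0.07, and 17 of the 56 were below 0. At an unadjusted p below 0.05 3 of the 56 were higher and 0 lower in the authors' deposited table, beside 0.912% and 0.382% of all entries. All 3 belonged to Lhx2, whose 2 baits had 10 and 12 loops in Ino80KD, 4 and 5 in Brg1KD, and 7 and 6 in Control. Its 14 entries came from these 2 baits and are not separate evidence. Entries rest on listed loops here too, and the regulators had 30 and 37 loops in Ino80KD and 26 and 25 in Control. The heterochromatin enzyme gene Ehmt2 had a weighted mean of 0.41 ± 0.13 (SE) over 10 entries of the authors' deposited table for Ino80KD, none of which passed, an SE that takes overlapping entries as independent. Ebf1, Ebf2 and Ebf3 had weighted means of 0.09 ± 0.12, -0.30 ± 0.15 and 0.01 ± 0.28 in the authors' deposited table. For Brg1KD the 48 entries of the regulators in the authors' deposited table had a median of -0.01, and 0 passed in either direction.

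Of 15 genes of odorant signalling and receptor export, such as the adenylyl cyclase Adcy3, the channel subunits Cnga2 and Cnga4 and the export factor Rtp2, 11 had a bait. Their entries in the authors' deposited tables had medians of 0.00 over 45 entries for Ino80KD and 0.02 over 43 entries for Brg1KD, and 0 entries passed in either direction and table. Adcy3 had 1 and 0 loops in Ino80KD, 1 and 5 in Brg1KD, and 2 and 0 in Control. For orientation, the bait of Pou5f1, a gene that marks stem cells, had 6 and 5 loops in Ino80KD, 3 and 3 in Brg1KD, and 5 and 2 in Control, while Gap43, a gene of growing neurons, had 1 loop, in Brg1KD replicate 1.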

How the data were processed

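Promoter-capture Micro-C was measured in 6 libraries. The authors deposited per-library loop lists with a score for each loop (lowest listed 5), and tables of differential contacts with a mean signal, a log2 fold change, its error and p-values per bait and region. Per the file headers, the signal, log2 fold change and p-value columns carry no library values, so no test of single contacts could be repeated. The coordinates are those of mm10 and bedtools took some part, per the submitters' processing notes, while the loop caller and the differential test are not given in the sources used here.

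Loops on the same chromosome were counted per library with Python 3.11.15, pandas 2.3.3 and scipy 1.17.1, and groups were compared by exact permutation over libraries. Read depth is unknown, since the lists hold no counts: same-chromosome loops numbered 14752 and 14172 in Ino80KD, 12313 and 13032 in Brg1KD, and 15385 and 14451 in Control. The matching of loops and the exact tests were checked on simulated data. Spans of loops and entries were measured from the centre of 1 end to the centre of the other. Genes came from RefSeq (GRCm38.p6) by symbol. Named genes were the 8 baits with the most loops, OR entries by smallest deposited p, loops by the number and pattern of libraries, non-OR partners and a list of olfactory genes. The members and lists were chosen with earlier results of these data known. Alternatives covered the score minimum, bait distance, denominator, loop merging, left-out libraries, the replicate block and batches. Replicate numbers pair libraries of 1 batch only for replicate 1 of all groups and replicate 2 of the depletions, so with 2 pairs the block is an alternative.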

Additional observations from a re-analysis of the deposited data

Results flagged for a closer look

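Loops from OR baits to other chromosomes, which enter no test above, numbered 11 and 3 in Ino80KD, 47 and 12 in Brg1KD, and 13 and 10 in Control. The 47 loops of Brg1KD replicate 1 stood above every other library, came from 43 baits, reached 16 chromosomes and ended at 0 OR genes. Per 1000 interchromosomal loops of the library they were 8.95, against 3.38 in Brg1KD replicate 2, 2.85 and 0.857 in Ino80KD, and 3.55 and 2.65 in Control. The same library had the fewest OR loops within chromosome 2, at 124, and the most interchromosomal loops in all, at 5254. Whether these values are connected was not tested.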

How the results depend on the processing

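Each group holds 2 libraries, so no comparison of OR loops per 1000 could pass an exact test, and the deposited tables could not be refitted without a library. Over all results and alternatives 63 values kept their direction and, where a p threshold applied, their side of it. Another 20 kept their direction but not their side of the threshold or their count, 3 reversed and 2 moved. No p threshold was applied to the ratios of OR loops per 1000 or to the medians of deposited fold changes. The ratio of OR loops per 1000 for Ino80KD against Control stayed below 1 in all 14 alternatives, and leaving out a library gave 0.745 to 0.773. With loops of score 10 or more, of which no library had over 7, that ratio was 0.320, and those of Brg1KD against Control and Ino80KD against Brg1KD were 0.504 and 0.635. For Brg1KD against Control leaving out a library gave 0.647 to 1.05, and the value above 1 came without Brg1KD replicate 1. For Ino80KD against Brg1KD it gave 0.723 to 1.17, above 1 without Brg1KD replicate 2, and the ratio within batch 1 was 1.19. With the replicate block the ratios were 0.759 for Ino80KD against Control, 0.824 for Brg1KD against Control and 0.921 for Ino80KD against Brg1KD, and it changed no direction. Without 1 library the comparisons with the rest ranged from -33.8 to -31.8 percentage points for shared loops, 197 to 216 kb for span and -1.77 to -1.15 percentage points for loops between baits, each with p = 0.0625 by exact permutation, the smallest that 5 libraries allow. The median of OR entries in the authors' deposited tables was -0.046 for Brg1KD with 1 value per block and -0.30 for Ino80KD at high signal. At an unadjusted p under 0.01 there were 2 OR entries for Ino80KD and 0 for Brg1KD in the authors' deposited tables. Leaving out the bait absent from the group lists, limiting span and score, and 1 entry per bait were added after the data were seen, and changed no direction.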
